A study of Mus musculus with 8 samples.

Results

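Matrix metalloproteinases, their tissue inhibitors and 2 membrane-bound ADAM proteases of macrophages were followed through 8 mouse RNA sequencing libraries. The 10 genes were taken by symbol or Entrez identifier: Mmp8, Mmp9, Mmp12, Mmp13, Mmp14, Mmp19, Timp1, Timp2, Adam8 and Adam17. All 10 were listed in all 8 deposited tables, which together list 18125 genes (16657 for the peritoneal cells and 17416 for those from bone marrow). The study asked how the transcriptome of polarised macrophages differs when creatine uptake is lost, and compared cells of wild-type (WT) C57BL/6 mice with cells of Slc6a8-/y mice, called knockout (KO) here; Slc6a8 encodes the creatine transporter. Peritoneal macrophages had been drawn into the peritoneum by thioglycollate (1 ml of a 4% solution) and taken 3 to 4 days later, and were left untreated or exposed for 12 hours to 10 ng/mL of IFN-gamma. The other macrophages were raised from bone marrow in 10% M-CSF over 5 days, and were left untreated or exposed for 6 hours to 10 ng/mL of IL-4. Every combination of cell type, genotype and treatment is 1 library, and the labels leave unsaid whether 1 or several animals gave the libraries of a genotype. Cell type, culture, cytokine and exposure time differ together between the 2 arms, so their effects cannot be told apart across arms.

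Matrix metalloproteinases are zinc enzymes that cut collagens, elastin and other matrix proteins. They are made as inactive proenzymes, and the TIMP proteins block them by binding the active site. Macrophages are a main source of the elastase MMP12 in inflamed tissue. ADAM proteases sit in the plasma membrane and release the outer parts of other membrane proteins; ADAM17 is the enzyme that sets TNF free.

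The label check held in every library. Slc6a8 stood at 163.54 and 39.52 FPKM in WT peritoneal macrophages without and with IFN-gamma, and at 0.73 and 0.18 FPKM in the KO libraries. Cells from bone marrow had 97.34 and 87.92 FPKM in WT libraries, but 1.71 and 1.15 FPKM in those of the knockout. FPKM scales fragments to transcript length and to the fragments counted, so it can be compared between genes. Totals of expected counts ran from 10812678 to 11065427 in peritoneal and from 20553654 to 21221526 in bone marrow-derived libraries. All 8 macrophage markers on the list were at 1 FPKM or more in all 8 libraries. A gene near 1 FPKM rested on a median of 28 to 31 counts in peritoneal and 49 to 61.5 counts in bone marrow-derived libraries, and Mmp8, Mmp9 and Mmp13 are near this level in peritoneal cells.

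The gene for the macrophage elastase, Mmp12 (chromosome 9, 7344397 to 7360461, GRCm38.p6), lies close to those of the collagenases Mmp13 (7272514 to 7283333) and Mmp8 (7558429 to 7568486) on the same chromosome. Promoters of Mmp12 and Mmp13 are shown because these 2 members had the largest responses of the 10 genes, Mmp12 to IFN-gamma and Mmp13 to IL-4, and because AP-1 sites, which Fos and Jun proteins bind, are known in metalloproteinase promoters. Each is the 250 bases before an annotated start, on the plus strand, from RefSeq on GRCm38.p6. Capitals mark a match to the AP-1 motif TGANTCA. The Mmp12 windows are chr9:7344147-7344396 and chr9:7347124-7347373, and the Mmp13 window is chr9:7272264-7272513.
Mmp12, upstream start: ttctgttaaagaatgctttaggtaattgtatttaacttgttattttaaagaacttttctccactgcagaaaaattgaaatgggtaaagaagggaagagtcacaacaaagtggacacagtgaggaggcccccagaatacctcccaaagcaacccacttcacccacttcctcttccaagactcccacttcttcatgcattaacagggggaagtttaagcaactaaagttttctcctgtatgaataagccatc
Mmp12, downstream start: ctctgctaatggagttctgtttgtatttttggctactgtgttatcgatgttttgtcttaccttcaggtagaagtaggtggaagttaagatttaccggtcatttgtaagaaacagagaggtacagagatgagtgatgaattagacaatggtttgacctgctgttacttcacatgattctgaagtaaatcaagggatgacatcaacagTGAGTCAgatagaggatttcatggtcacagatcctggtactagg
Mmp13: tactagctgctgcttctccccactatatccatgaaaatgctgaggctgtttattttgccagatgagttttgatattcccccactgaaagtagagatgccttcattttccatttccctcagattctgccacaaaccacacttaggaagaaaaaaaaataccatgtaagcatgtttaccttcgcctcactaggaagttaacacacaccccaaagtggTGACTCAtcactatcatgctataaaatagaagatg
The AP-1 match of the downstream Mmp12 start begins 44 bases before the start, and that of Mmp13 35 bases before it. Of the 10 genes, 8 matched the promoter table, with 9 windows. No other window among the 9 held this motif, which 6.75% of 32851 windows of the same length hold when both strands are searched. A STAT6 motif, TTC and GAA set 4 bases apart, was in none of the 9 windows and in 5.85% of all. GAGGAA, the PU box, was in the upstream Mmp12 window and in that of Mmp8, and in 23.3% of all windows. The core of the interferon-stimulated response element, taken as GAAA repeated after 2 bases, was in the Mmp13 window only, 146 bases before the start, and in 2.98% of all. None of these matches overlapped another, and the expression files do not show which start was used.

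Untreated peritoneal macrophages were dominated by 1 metalloproteinase transcript. Mmp12 reached 1039.05 FPKM in WT cells and 1687.94 FPKM in cells of the knockout, rank 42 and rank 18 of all genes by FPKM, and made up 91.4% and 93.8% of the summed FPKM of the 6 metalloproteinase members. In bone marrow-derived macrophages Mmp12 was between 36.25 and 50.83 FPKM in all 4 libraries and its share was 49.1% to 61.4%. The summed metalloproteinase FPKM was 4.086 times the summed FPKM of Timp1 and Timp2 in untreated WT peritoneal cells and 7.183 times in untreated KO cells, and 0.254 to 0.324 times in the 4 bone marrow-derived libraries. These ratios are of transcripts and not of active enzyme. Timp2 was the larger TIMP transcript in every library; Timp1 was 1.24% to 9.42% of the pair's FPKM in peritoneal cells and 19.03% to 27.94% in bone marrow-derived cells. The 2 arms were not compared by a test.

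**Figure D1:**
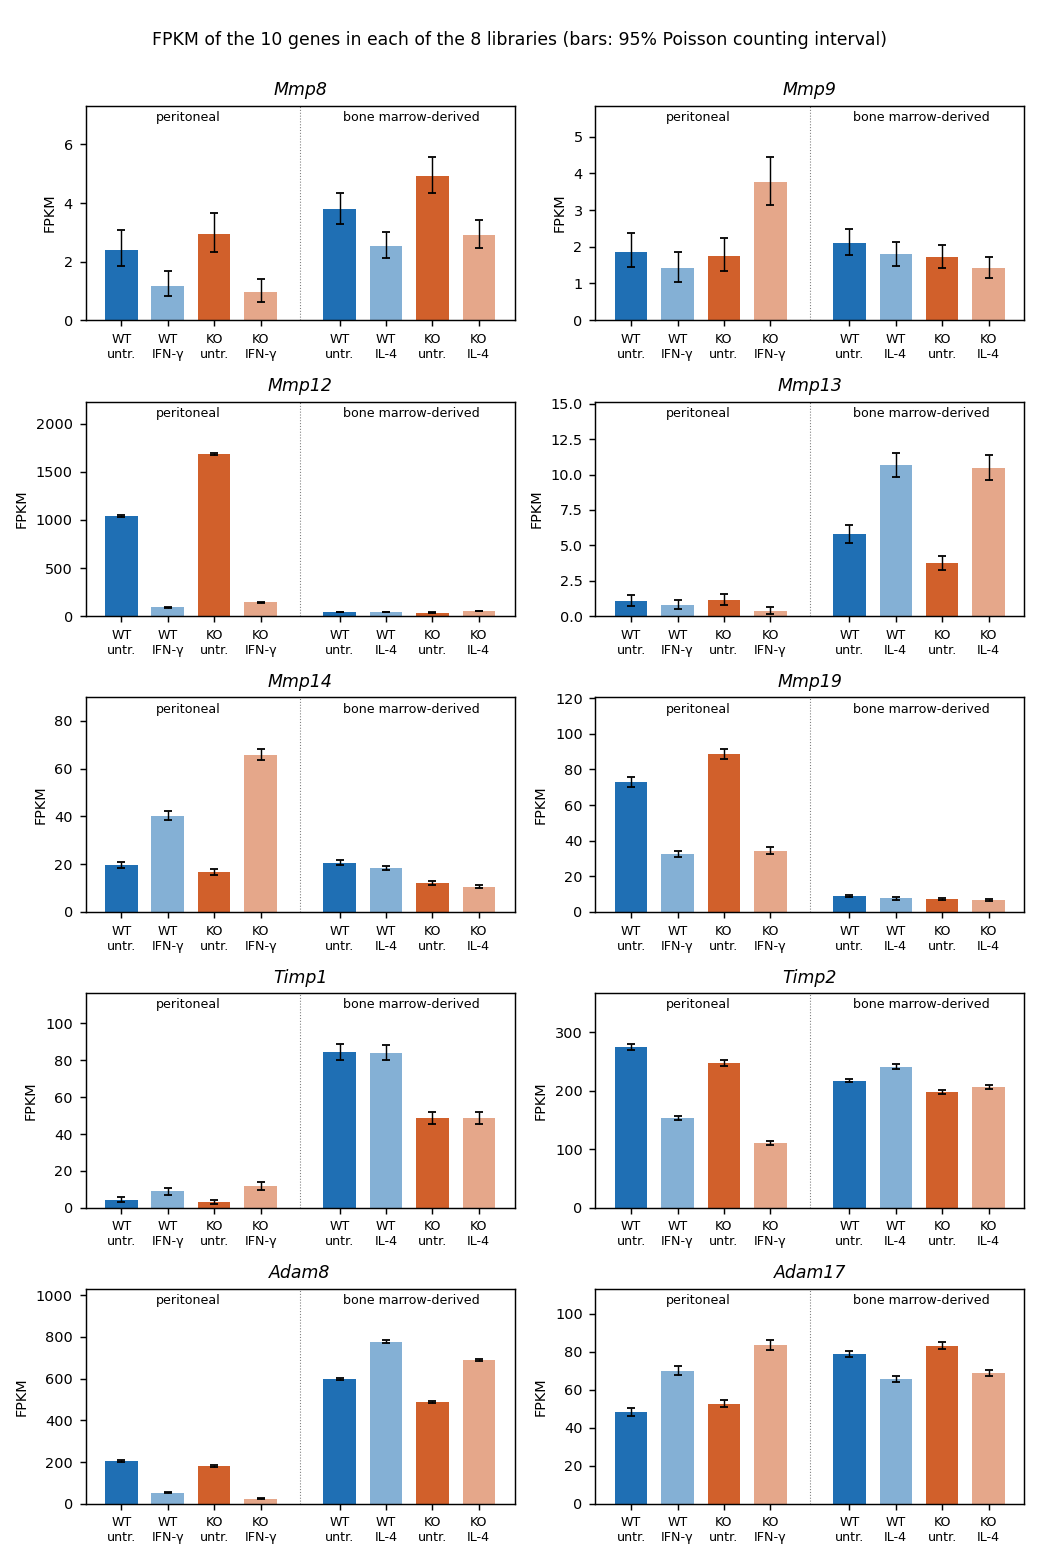
FPKM of each of the 10 genes (y axis, linear, from 0, a separate scale for each gene) in the 8 libraries (x axis); each bar is 1 library and the lines are exact 95% Poisson intervals, which cover counting error only. Mmp12 stands at 1039.05 and 1687.94 FPKM in untreated peritoneal cells and at 141.16 FPKM or less in the other 6 libraries.

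In peritoneal macrophages IFN-gamma lowered the transcripts of 3 of the 5 secreted metalloproteinases (Mmp8, Mmp12 and Mmp19), of Timp2 and of Adam8, and raised those of the membrane-bound Mmp14, of Timp1 and of Adam17. Over both genotypes edgeR's quasi-likelihood test with Benjamini-Hochberg adjustment called 3 of the 10 genes as risen and 5 as fallen at an adjusted p under 0.05. The stimulus moved much of the transcriptome: 32.1% of the 12052 genes tested were called, 17.2% as risen and 14.9% as fallen. The 10 estimates had a median of -0.90 on the log2 scale and a range of -3.46 to 1.60, against a median of -0.01 over all genes. Each test compares 2 pairs of libraries and has 1 residual degree of freedom; any difference between genotypes in the response enters its error. Without replicates, the error of a gene is its misfit to additive terms in 4 libraries, drawn towards a trend over all genes. The p-values thus rest in part on that trend and measure no spread between replicates. They may be too small if libraries share an animal.

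Mmp12 had the largest response of the 10. It went from 1039.05 to 90.25 FPKM in WT cells, and in KO cells from 1687.94 to 141.16 FPKM. As a ratio of counts this was 11.5-fold lower in WT (95% counting interval 11.1 to 11.9) and 12.0-fold lower in KO cells (11.6 to 12.3). The estimate was -3.46 (SE 0.096, adjusted p = 1.23e-05, edgeR). The share of Mmp12 among the 6 metalloproteinases dropped to 54.2% in WT and 57.3% in KO cells, and the ratio of metalloproteinase to TIMP transcripts to 1.028 and 2.008. Without Mmp12, the summed FPKM of the other 5 metalloproteinases was 97.9 untreated and 76.2 with IFN-gamma in WT, and 111.27 and 105.37 in KO cells.

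Mmp19 (chromosome 10, 128790910 to 128800827), a secreted enzyme that cuts basement membrane proteins, followed Mmp12 downwards. Its level was 73.0 and 32.53 FPKM in WT cells without and with IFN-gamma, and 88.63 and 34.42 FPKM in KO cells. The estimate was -1.17 (SE 0.098, adjusted p = 0.000522, edgeR). Mmp19 overlaps Tmem198b, which moved alike (27.51, 13.7, 32.04 and 14.68 FPKM in the same order), and no source used here says whether the authors' counting used strand, so the split between both genes is uncertain.

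The collagenases and the gelatinase Mmp9 (chromosome 2, 164940326 to 164955850) were scarce in these cells. Mmp8, the neutrophil-type collagenase, was at 2.41 and 1.18 FPKM in WT libraries and at 2.94 and 0.96 FPKM in those of the knockout, from 64, 32, 79 and 26 counts, and fell by 1.22 on the log2 scale (SE 0.26, adjusted p = 0.0155, edgeR). DESeq2 gave -1.21 with an adjusted p of 0.234. Of 12 neutrophil markers 3 were tested and 2 rose, Cxcr2 and Csf3r, where 17.2% of all genes rose. The summed FPKM of the list was 23.44 and 21.54 untreated and 41.29 and 40.53 with IFN-gamma in WT and KO cells. The defining marker Ly6g had no row in the tables of 3 of the 4 peritoneal libraries, which was taken as 0, and was at 0.1 FPKM in the KO library with IFN-gamma. The part of such cells in these results was not tested. Mmp13 rested on 10 to 33 counts a library and was not called (-0.89, adjusted p = 0.142). Mmp9 was at 1.87, 1.41 and 1.74 FPKM in untreated WT, treated WT and untreated KO cells and at 3.75 FPKM in treated KO cells. Only the last library was high, and the estimate over both genotypes was 0.52 (adjusted p = 0.338, edgeR).

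Mmp14 (chromosome 14, 54431598 to 54442456), the membrane-anchored collagenase that also activates pro-MMP2, rose. It went from 19.59 to 40.31 FPKM in WT cells, and in KO cells from 16.84 to 65.9 FPKM. The count ratios were 2.06 (1.89 to 2.24) in WT and 3.91 (3.6 to 4.26) in KO cells, with an estimate of 1.60 (SE 0.23, adjusted p = 0.00393, edgeR). The share of Mmp14 among the 6 metalloproteinases went from 1.7% to 24.2% in WT and from 0.9% to 26.7% in KO cells.

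**Figure D2:**
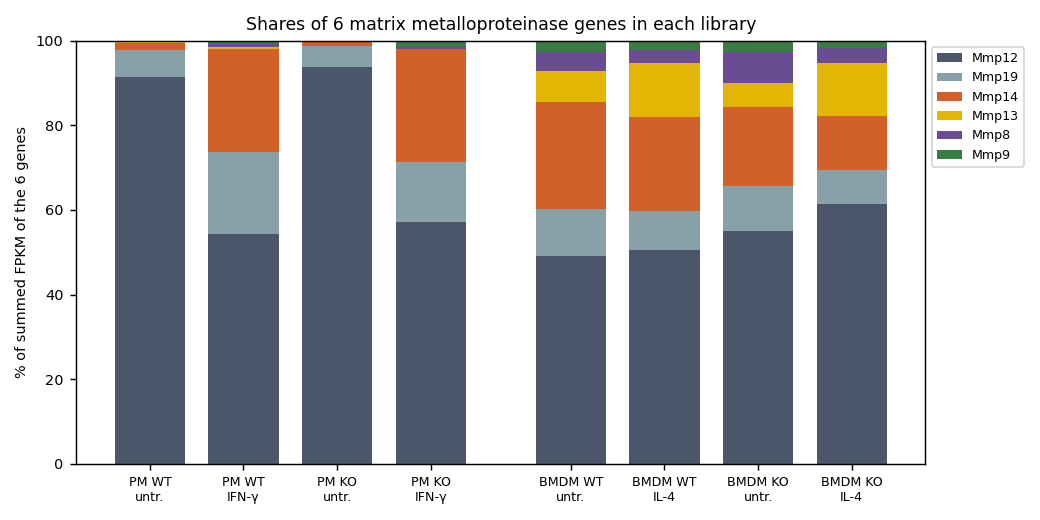
Share of each of the 6 metalloproteinase genes in their summed FPKM (y axis, percent) in each library (x axis; PM, peritoneal; BMDM, bone marrow-derived); 1 stacked bar is 1 library and there is no error bar. Mmp12 fills 91.4% and 93.8% of the untreated peritoneal bars and 54.2% and 57.3% of the IFN-gamma bars, where Mmp14 takes 24.2% and 26.7%.

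The 2 inhibitors, Timp1 (chromosome X, 20870166 to 20874737) and Timp2 (chromosome 11, 118301061 to 118355411), went opposite ways. Timp1 went from 4.29 to 8.91 FPKM in WT cells, and in KO cells from 3.11 to 11.57 FPKM, on 30 to 112 counts, and rose by 1.56 (SE 0.27, adjusted p = 0.00832, edgeR). It overlaps Syn1, which had 79, 26, 24 and 18 counts in WT untreated, WT treated, KO untreated and KO treated cells. Timp1 had 41, 87, 30 and 112 counts in the same order. Whether counting used strand is not given, so the split between both genes is uncertain, most of all in WT cells. Timp2, the inhibitor that also joins MMP14 and pro-MMP2 at the cell surface, went from 273.98 to 153.08 FPKM and from 247.38 to 111.21 FPKM and fell by 0.90 (SE 0.10, adjusted p = 0.00168, edgeR). The summed FPKM of both genes, most of it Timp2, was 278.27 and 250.49 untreated and 161.99 and 122.78 with IFN-gamma. Of 9 fibroblast and mesothelial markers tested 3 fell, 0 rose and 6 were not called by edgeR, and the summed FPKM of the list was 142.43 and 132.93 untreated and 119.8 and 93.53 with IFN-gamma in WT and KO cells. Of the 8 macrophage markers 2 rose and 4 fell, with a median of -0.29. Of all genes tested 17.2% rose and 14.9% fell. The part of other cells in these changes was not tested.

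The ADAM genes, Adam8 (chromosome 7, 139978932 to 139995207) and Adam17 (chromosome 12, 21323509 to 21373632), also parted. Adam8, a leukocyte protease that sheds adhesion molecules, went from 206.5 to 53.16 FPKM in WT cells, and in KO cells from 180.45 to 24.78 FPKM, an estimate of -2.31 (SE 0.21, adjusted p = 0.00066, edgeR). Adam17 went from 48.27 to 69.87 FPKM and from 52.69 to 83.35 FPKM, an estimate of 0.69 (SE 0.10, adjusted p = 0.00439, edgeR). The order of the pair turned: Adam8 was 4.28 and 3.42 times Adam17 by FPKM in untreated WT and KO cells, and 0.76 and 0.3 times with IFN-gamma. Iah1, which overlaps Adam17, did not move alike (48.75, 41.45, 53.89 and 36.72 FPKM in the order WT untreated, WT treated, KO untreated, KO treated).

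As a measure of size alone, a 2-fold limit on single pairs of libraries, with genes of at least 1 FPKM on average and 1 added to each FPKM, set apart 4 members in WT and 7 in KO cells. In WT cells Mmp14 was past it upwards, where 5.95% of 10670 genes were, and Mmp12, Mmp19 and Adam8 downwards, where 4.56% were (10.5% in either direction). In KO cells Mmp14 and Timp1 were past it upwards (7.27% of genes), and Mmp8, Mmp12, Mmp19, Timp2 and Adam8 downwards (6.6%, and 13.9% in either direction). Mmp13 was below the filter in peritoneal cells, so 9 members could be counted.

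**Figure D3:**
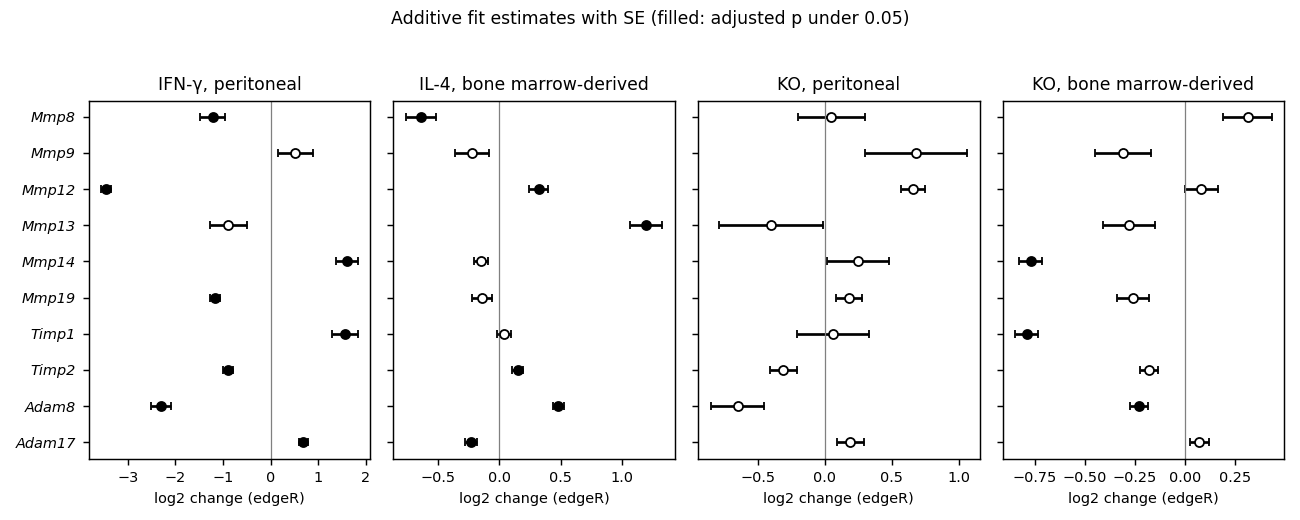
Log2 change (x axis, a separate scale in each panel) of each of the 10 genes (y axis) for the stimulus and for KO against WT in each cell type, from edgeR fits on 4 libraries each; lines are the SE and filled points have an adjusted p under 0.05. The IFN-gamma panel runs from -3.46 for Mmp12 to 1.60 for Mmp14, while the KO panel of the same cells has no filled point.

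Genes that act on these enzymes moved with IFN-gamma as well. Of 16 listed genes for activation and maturation of the proteases, 12 were tested, 5 rose and 1 fell, with a median of 0.28. Of all 12052 genes tested 17.2% rose and 14.9% fell, with a median of -0.01. Plau, the urokinase that starts plasmin and thereby proenzyme activation, went from 17.97 to 137.63 FPKM in WT cells, and in KO cells from 14.97 to 197.58 FPKM (3.42, adjusted p = 0.000194, edgeR). Its receptor Plaur (1.44), the proprotein convertase Furin (0.90), and Rhbdf2 (1.29), which carries ADAM17 through the secretory path, rose with it. The ADAM10 partner Tspan33 rose to 1.93 and 7.09 FPKM from no row in the untreated WT table, taken as 0, and 0.05 FPKM in untreated KO cells, and Tspan14, another ADAM10 partner, fell (-1.0, adjusted p = 0.00302, edgeR).

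Genes for ADAM17 substrates, the proteins that this protease releases, mostly rose where they changed. Of 16 tested, 10 rose and 2 fell, with a median of 1.23. Over all genes tested 17.2% rose and 14.9% fell, with a median of -0.01. Tnf went from 3.09 to 56.28 FPKM in WT cells, and in KO cells from 2.67 to 80.42 FPKM (4.64, adjusted p = 5.46e-05, edgeR). The adhesion molecule genes Icam1 (5.47) and Vcam1 (4.01) and the receptor gene Notch1 (3.31) rose too. The cell surface proteoglycan gene Sdc1 fell from 198.41 to 36.15 FPKM in WT cells, and in KO cells from 197.45 to 39.22 FPKM (-2.30, adjusted p = 6.27e-05, edgeR). Tnf and Icam1 are known NF-kB targets as well.

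Of 15 tested AP-1 and ETS factor genes 9 rose and 3 fell, with a median of 0.66, where 17.2% of all genes rose and 14.9% fell. The members that fell include the classic AP-1 pair: Fos went from 7.46 to 2.4 FPKM in WT cells, and in KO cells from 8.56 to 3.24 FPKM (-1.41, adjusted p = 0.0019, edgeR), and Jun from 143.01 to 71.77 FPKM and from 138.07 to 54.7 FPKM (-1.07, adjusted p = 0.00107, edgeR). Batf2, an interferon-induced factor that pairs with Jun proteins, rose by 6.71, Batf3 by 1.81, Batf by 1.33 and Ets2 by 1.00. Junb and Jund, named after their values were seen, were called as risen as well. No binding was measured at the AP-1 matches printed above.

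For the other proteases the background is again the 32.1% of genes called. Among 6 other metalloproteinase genes tested, Mmp27 fell (-1.97, adjusted p = 0.00265, edgeR) and Mmp25, named after its values were seen because it lies below 1 FPKM, rose to 0.81 and 0.41 FPKM from no row in the untreated WT table, taken as 0, and 0.07 FPKM in untreated KO cells. Of 13 other ADAM and ADAMTS genes 2 rose, Adam15 (0.50) and Adam9 (0.43), and 2 fell, Adam12 (-0.82) and the low gene Adamts1. Timp3, the matrix-bound inhibitor that also blocks ADAM17, fell (-0.42, adjusted p = 0.0371, edgeR).

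In peritoneal macrophages none of the 10 genes was called for genotype. The background was 0.0332% of 12052 genes called by edgeR, 0.0249% as risen and 0.0083% as fallen, with 1680 at an unadjusted p under 0.05, 3 of them members. The 10 estimates had a median of 0.12 and a range of -0.65 to 0.68. Mmp12 came nearest: it was 1.62-fold higher by counts in untreated KO than WT cells (counting interval 1.6 to 1.64) and 1.56-fold higher with IFN-gamma (1.5 to 1.63), an estimate of 0.66 (SE 0.088, adjusted p = 0.112, edgeR). Its adjusted p was 0.0136 with DESeq2, 0.0229 without the filter on low counts and 0.047 with all 8 libraries in 1 fit. With RLE scaling (0.0916) and with limma on log2(FPKM + 1) (0.163) it was not called.

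Several members differed between KO and WT cells in 1 treatment more than in the other. Untreated, Adam8 had 206.5 FPKM in WT cells and 180.45 in KO cells, and with IFN-gamma 53.16 and 24.78 FPKM, where its count ratio was 0.466 (0.429 to 0.506). On the scale of log2(FPKM + 1) it was past 2-fold in the IFN-gamma pair, downwards, as were 0.89% of 10670 genes (2.45% in either direction). Mmp14 was lower in untreated KO cells, at a ratio of 0.859 (0.776 to 0.952), and higher with IFN-gamma, at 1.63 (1.54 to 1.74). Mmp9 had a ratio of 0.928 (0.643 to 1.34) untreated and 2.66 (1.91 to 3.76) with IFN-gamma, on 50 and 132 counts; on the log2(FPKM + 1) scale, where the added 1 draws low genes together, it stood at 0.98, just short of 2-fold. In the untreated pair no member was past 2-fold, against 0.778% of genes (0.356% higher, 0.422% lower).

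Set as responses, the log2 change with IFN-gamma in KO minus that in WT cells was 1.05 for Mmp9, 0.90 for Mmp14, 0.71 for Timp1 and -0.88 for Adam8. Differences at least this large occurred in 2.12%, 3.06%, 5.54% and 3.3% of 10670 genes. Mmp9 did not rise in WT cells (-0.25, with a count ratio of 0.752 and a counting interval of 0.509 to 1.1) and rose in KO cells (0.79). For Timp1 the counting intervals of the response overlapped, at 1.41 to 3.08 in WT and 2.47 to 5.76 in KO cells. For Mmp12 the responses differed by -0.06, the median of all genes. With 1 library in each group this difference had no test.

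Over the 6 pathway lists edgeR called 0 genes for genotype in peritoneal cells. The summed FPKM of fibroblast and mesothelial markers in the KO libraries was 0.933 of that in WT untreated and 0.781 with IFN-gamma, that of macrophage markers 0.837 and 0.818, and that of neutrophil markers 0.919 and 0.982. Their part in these differences was not tested.

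**Figure D4:**
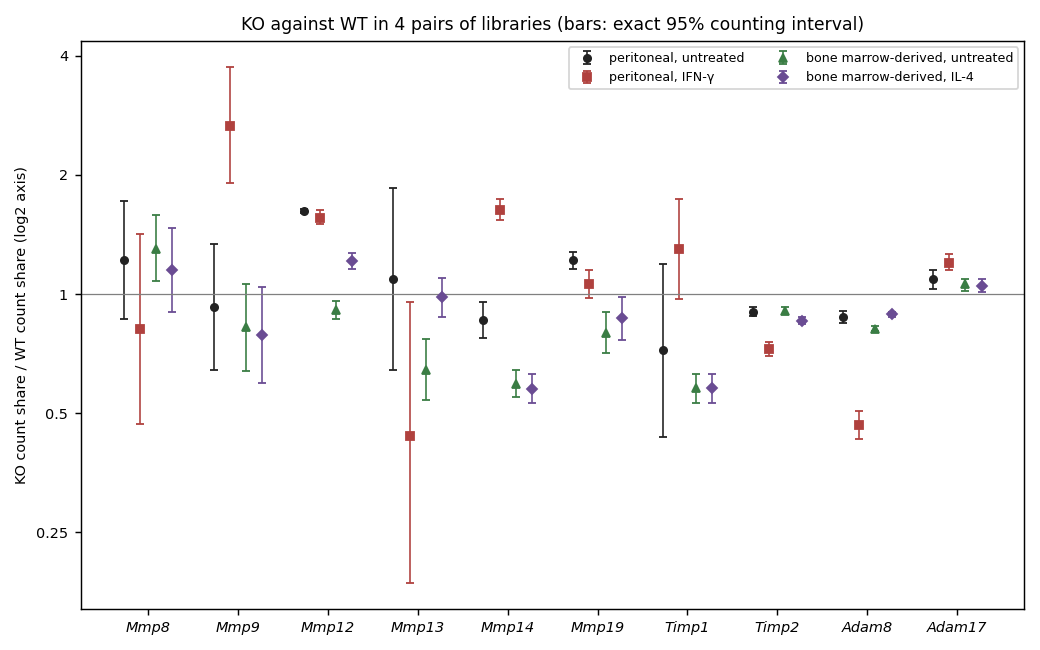
KO count divided by WT count, each as a share of its library (y axis, log2 scale), for the 10 genes (x axis) in the 4 pairs of libraries; lines are exact 95% intervals that cover counting error only. Adam8 and Timp2 lie below 1 and Adam17 above 1 in all 4 pairs, and Mmp14 lies at 0.859 and 1.63 in peritoneal and at 0.594 and 0.576 in bone marrow-derived pairs.

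IL-4 moved these genes less than IFN-gamma did in the other cell type, a contrast that was not tested. In bone marrow-derived macrophages 4 of the 10 genes rose and 2 fell (edgeR), where 21.2% of 12879 genes were called, 12.0% as risen and 9.23% as fallen. The estimates had a median of -0.05 and a range of -0.64 to 1.20. Markers of cell types moved with IL-4 as well. Of 5 neutrophil markers tested 1 rose, Csf3r (0.54), and 4 were not called. The summed FPKM of the list was 1.43 times the untreated sum in WT and 1.26 times in KO cells. Most of that sum was Csf3r alone, at 45.11 and 66.7 FPKM in WT cells without and with IL-4, and 46.75 and 62.4 FPKM in KO cells. Of 6 eosinophil markers 2 were tested, near or below 1 FPKM, and both rose. Siglecf went from 0.49 to 0.95 FPKM in WT cells, and in KO cells from 0.37 to 1.14 FPKM, and Ccr3 from 0.78 to 1.11 and from 0.3 to 0.67 FPKM. The marker Epx was taken as 0 in both IL-4 libraries, and Prg2 in that of the knockout. Of 8 macrophage markers 2 rose and 4 fell, with summed ratios of 0.809 and 0.804, and of 6 fibroblast and mesothelial markers tested 2 fell, with summed ratios of 0.936 and 0.857. Their part in the IL-4 results was not tested. Past 2-fold in single pairs was no member in WT cells, against 1.72% of 10906 genes, and Mmp13 alone in KO cells, upwards, against 1.27%.

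The collagenase-3 gene Mmp13 had the largest response. It went from 5.8 to 10.65 FPKM in WT cells, and in KO cells from 3.73 to 10.47 FPKM, on 212 to 596 counts. The count ratios were 1.84 (1.6 to 2.11) and 2.8 (2.39 to 3.3), with an estimate of 1.20 (SE 0.13, adjusted p = 0.000125, edgeR). The KO response exceeded the WT response by 0.50 on the log2 scale, a size that 2.72% of genes reached. The untreated KO level was lower than in WT, at a ratio of 0.644 (0.539 to 0.768), and the IL-4 levels differed by less than counting error, at 0.983 (0.876 to 1.1).

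Mmp8, the other collagenase, went from 3.79 to 2.53 FPKM in WT cells, and in KO cells from 4.94 to 2.92 FPKM, and fell by 0.64 (SE 0.12, adjusted p = 0.00414, edgeR), while DESeq2 did not call it (adjusted p = 0.256). Mmp12 was at 39.8 and 41.79 FPKM in WT, a difference within counting error, and at 36.25 and 50.83 FPKM in KO cells. Its estimate of 0.32 (SE 0.081, adjusted p = 0.0192, edgeR) was not called by DESeq2, by limma on log2(FPKM + 1) or with all 8 libraries in 1 fit (adjusted p of 0.572, 0.111 and 0.123). Mmp9, Mmp14 and Mmp19 were not called, at -0.22, -0.15 and -0.14.

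Adam8 was among the most abundant transcripts of these cells, at 488.47 to 777.17 FPKM and between rank 59 and rank 116 of all genes. It went from 598.11 to 777.17 FPKM in WT cells, and in KO cells from 488.47 to 689.84 FPKM with IL-4, an estimate of 0.48 (SE 0.044, adjusted p = 4.24e-05, edgeR). Adam17 went from 78.68 to 65.6 FPKM and from 82.99 to 68.78 FPKM, an estimate of -0.23 (SE 0.046, adjusted p = 0.00612, edgeR). Both calls were lost with all 8 libraries in 1 fit (adjusted p of 0.165 and 0.114). Both genes thus moved against their direction under IFN-gamma in peritoneal cells, where cell type, cytokine and time all differ.

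With IL-4 the estimates of both TIMP genes were 0.15 or less. Timp1 was at 84.31 and 84.14 FPKM in WT libraries, but 48.63 and 48.56 FPKM in those of the knockout, an estimate for IL-4 of 0.04 (adjusted p = 0.697, edgeR). Timp2 went from 217.47 to 241.35 FPKM and from 197.35 to 206.62 FPKM, an estimate of 0.15 (SE 0.046, adjusted p = 0.0467, edgeR) that RLE scaling left at an adjusted p of 0.0582, and DESeq2, limma and the fit of 8 libraries at 0.187, 0.166 and 0.4. Timp3, the matrix-bound inhibitor, fell (-0.27, adjusted p = 0.00337, edgeR).

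Among the pathway lists, 3 of 14 activation and maturation genes rose with IL-4 and none fell: Furin (0.37), Rhbdf2 (0.34) and Tspan14 (0.31). The list median was 0.14. The background for this and the following lists was 12.0% of 12879 genes risen and 9.23% fallen. Of 14 other ADAM and ADAMTS genes 3 rose, with Adam9 at 0.62 and Adam10, the second main sheddase, at 0.46, besides the low gene Adamts5. Another 2 fell, Adam12 (-0.34) and Adamts4, a low gene. ADAM17 substrate genes went both ways, 3 up and 4 down of 15: Sdc4 rose from 41.19 to 133.53 FPKM in WT cells, and in KO cells from 36.77 to 108.8 FPKM (1.67, adjusted p = 4.41e-08, edgeR), and Tnf fell (-0.68). Of 16 AP-1 and ETS genes 7 rose, among them Batf3 (3.43), Etv5 (1.06), Fosl2 (1.01) and Jun (0.35), and Fos fell (-0.55, adjusted p = 0.00111, edgeR). None of 9 other metalloproteinase genes tested by edgeR was called for IL-4.

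Bone marrow-derived macrophages of the knockout had lower Timp1, Mmp14 and Adam8 transcripts than WT cells. Among the 10 genes edgeR called 3 as fallen and 0 as risen, where 5.19% of 12879 genes were called, 3.68% as fallen and 1.51% as risen. The estimates had a median of -0.24, a range of -0.79 to 0.31, and a median over all genes of 0.00. As with IFN-gamma, the p-values measure no spread between replicates and may be too small if libraries share an animal.

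Timp1 was at 84.31 and 84.14 FPKM in the WT libraries and at 48.63 and 48.56 FPKM in the KO libraries. The count ratio was 0.577 in both treatments (0.531 to 0.626 untreated, 0.531 to 0.627 with IL-4), and the estimate was -0.79 (SE 0.056, adjusted p = 4.7e-05, edgeR). It was called under each of the 5 other settings of the fit, with an adjusted p of 0.0294 for all 8 libraries in 1 fit. Timp1 lies on the X chromosome, as Slc6a8 does, and overlaps Syn1, which was at 8.0 and 10.94 FPKM in WT libraries, but 5.96 and 7.5 FPKM in those of the knockout, so that part of either count is uncertain.

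Mmp14 was at 20.55 and 18.31 FPKM in WT libraries, but 12.21 and 10.55 FPKM in those of the knockout. The count ratios were 0.594 (0.549 to 0.643) and 0.576 (0.529 to 0.628), with an estimate of -0.77 (SE 0.057, adjusted p = 5.77e-05, edgeR). The fit of all 8 libraries gave an adjusted p of 0.21. Adam8 was lower by less, at ratios of 0.817 (0.805 to 0.829) and 0.888 (0.876 to 0.899), with an estimate of -0.23 (SE 0.044, adjusted p = 0.0158, edgeR) that limma and the fit of 8 libraries did not call (adjusted p of 0.0957 and 0.784). No member was past 2-fold in either KO pair, against 0.403% of 10906 genes untreated (0.156% higher, 0.248% lower) and 0.642% with IL-4.

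Markers of other cells moved with Timp1 and Mmp14. Of 11 fibroblast and mesothelial markers, 6 were tested in bone marrow-derived cells and 5 fell with the knockout, where 3.68% of all genes fell. The list median was -0.89. Col1a1, the main chain of type I collagen, was at 208.73 and 198.89 FPKM in WT libraries, but 109.59 and 93.66 FPKM in those of the knockout (-1.01, adjusted p = 1.07e-05, edgeR). The summed FPKM of the list was 386.74 and 362.13 in WT and 206.24 and 176.83 in KO cells, ratios of 0.533 and 0.488, while that of the macrophage markers had ratios of 1.01 and 1.0. The mesothelial markers Msln, Upk3b and Wt1 had no row in any of the 4 tables, which was taken as 0. The part of such cells in the Timp1 and Mmp14 result was not tested, and in bulk RNA fewer cells of a type and less RNA per cell cannot be told apart.

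Other matrix genes of these libraries were lower in KO cells too. The background for the following lists is again 3.68% of 12879 genes called as fallen and 1.51% as risen. Timp3 was at 50.93 and 40.84 FPKM in WT libraries, but 24.0 and 19.46 FPKM in those of the knockout (-1.08, adjusted p = 7.73e-06, edgeR). Of 9 other metalloproteinase genes tested 2 fell, the gelatinase Mmp2 (-0.90) and Mmp27 (-0.58). Of 14 other ADAM and ADAMTS genes 7 fell, among them Adamts1 (-1.22), Adamts2 (-0.85), Adam12 (-0.59) and Adam19 (-0.53), and Adam33 rose (0.74). The activation and maturation list had 0 calls by edgeR in 14 genes tested, with a median of -0.02. ADAM17 substrate genes had 1 rise, Icam1 (0.30), and 2 falls, Sdc1 (-0.26) and Sdc4 (-0.23), in 15 tested. In the AP-1 and ETS list 4 of 16 fell, Fosl1 (-1.29), Etv5 (-0.66), Fosl2 (-0.27) and Ets2 (-0.26), and Junb rose (0.22).

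**Figure D5:**
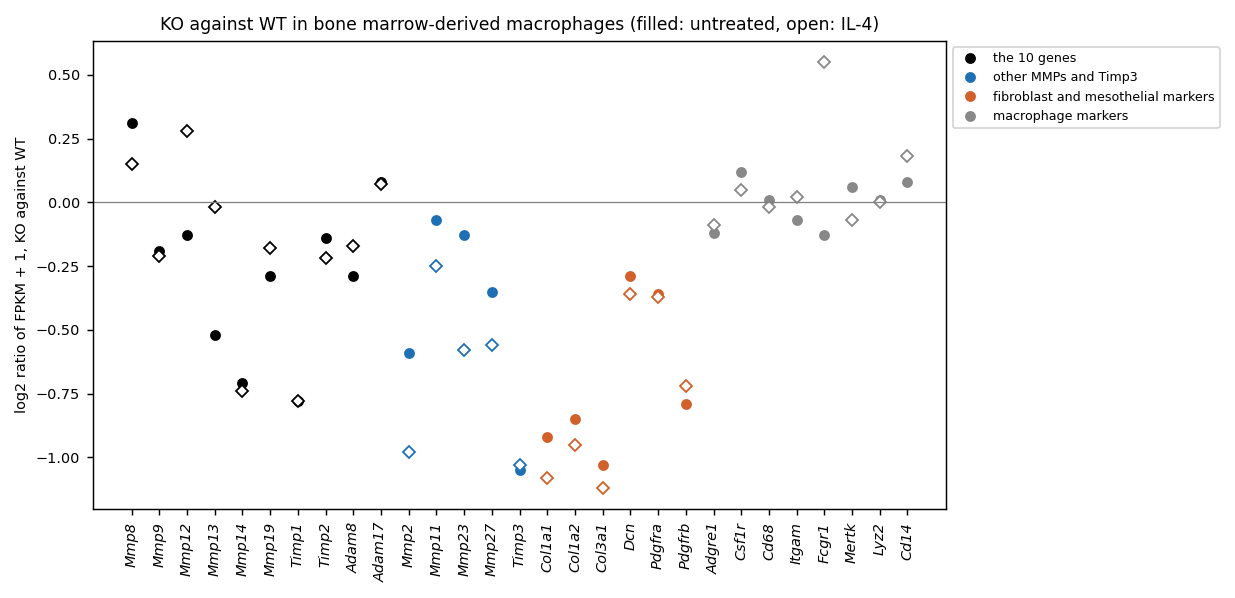
Log2 ratio of FPKM + 1, KO against WT (y axis), in bone marrow-derived macrophages for the 10 genes, other metalloproteinase genes and Timp3, fibroblast and mesothelial markers and macrophage markers with a mean of at least 1 FPKM (x axis); filled points are the untreated and open points the IL-4 pair, 1 library on each side and no error bar. Timp1 (-0.78 in both pairs) and Mmp14 (-0.71 and -0.74) lie beside Timp3 (-1.05 and -1.03) and Col1a1 (-0.92 and -1.08), and 7 of the 8 macrophage markers lie within 0.18 of 0 in both pairs.

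Across both cell types, 3 members had 1 direction of KO against WT in all 4 pairs beyond counting error, of 9 members among the 10073 genes that average 1 FPKM or more in each cell type. Of these genes 1.77% had it, 0.943% lower and 0.824% higher. Counting intervals narrow as counts grow, so genes with many counts can reach this at small ratios. That share of all genes is not matched for counts. For Adam17 the ratios were 1.06 and 1.05 in untreated and IL-4 bone marrow-derived cells, where edgeR gave 0.07 (adjusted p = 0.462). Adam8 was lower in 4 of 4 pairs, with a mean log2 difference of -0.43 (SE 0.15), and Timp2 in 4 of 4, with -0.24 (SE 0.07), while Adam17 was higher in 4 of 4, with 0.13 (SE 0.056). None passed limma's test over the 4 pairs: the adjusted p was 0.577 for each. The test takes the 4 pairs as independent, and the SE may be too small if libraries share an animal. Without the IFN-gamma pair the mean for Adam8 was -0.22. That test called 0.00993% of 10073 genes, with 845 at an unadjusted p under 0.05, and 9 of the 10 members entered it. Mmp12 was higher in 3 of the 4 pairs and lower in untreated bone marrow-derived cells (0.37, SE 0.14, adjusted p = 0.577).

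The 3 members that varied most within cell types were Mmp12, Adam8 and Mmp14, with an SD of log2(FPKM + 1), centred within each cell type, of 1.28, 0.90 and 0.61 over the 8 libraries. Nearest to Mmp12 among 10073 genes, by Euclidean distance of the centred values, were Prss46 (0.45), Rhov (0.69) and Ckb (0.74). Prss46 was at 31.51, 1.46, 45.09 and 2.71 FPKM in peritoneal WT untreated, WT treated, KO untreated and KO treated cells. Nearest to Adam8 were Mettl7a1 (0.22), Daglb (0.47) and Misp3 (0.57). Nearest to Mmp14 were Plpp1 (0.36), the member Timp1 (0.38) and Dnaaf3 (0.44). These distances describe 8 libraries and have no test.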

How the data were processed

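The authors deposited, for each of the 8 libraries, a table of genes with an expected count and an FPKM value; per the submitters' processing notes the tools were Bowtie2 2.2.5 and RSEM and the build mm10, while no source used here gives the RSEM version or says whether counting used strand. The deposited expected counts are estimates, whole within 0.005 for 70.1% to 77.8% of genes, and were rounded. The deposited FPKM values are not scaled across libraries. Genes absent from a table were taken as 0. Names and places came from RefSeq on GRCm38.p6 (18076 genes, 42 kept the deposited symbol, 7 had none).

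For each cell type an additive fit of genotype and stimulus was made on the whole table with edgeR 4.0.16 (TMM scaling, filterByExpr, quasi-likelihood test, Benjamini-Hochberg adjustment over all genes, threshold 0.05). The SE is the size of the log2 change over the square root of F and may be too small for low counts. Differences of log2(FPKM + 1) between KO and WT in the 4 pairs were tested with limma 3.58.1. Pairs of libraries have no test; their intervals, and those of levels, are exact 95% binomial and Poisson intervals that cover counting error only, since PCR copies of a fragment count as separate reads. Alternatives were RLE scaling, no filter, DESeq2 1.42.0, limma on log2(FPKM + 1), all 8 libraries in 1 fit and, for pairs, a pseudocount of 0.1, median centring, TMM-scaled counts and a 1.5-fold limit; leaving out each of the 4 pairs was added after seeing the data. R 4.3.3 and Python 3.11.15 were used.

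The 10 genes and the pathway and marker lists were chosen with earlier results of these data known. All 10 are described. Of each pathway list the text names at most 6 called genes per cell type with a mean of at least 1 FPKM and the largest stimulus estimates; for the genotype results the same limit was set on the genotype estimates. Other names are low genes needed to complete a count or are said to be named after their values were seen. Some results for items of these lists are not reported here.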

Additional observations from a re-analysis of the deposited data

Results flagged for a closer look

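Some members differed between KO and WT cells in opposite directions in 2 conditions, each beyond counting error; with 1 library in each group none of these differences was tested. Mmp14 had a KO to WT count ratio of 0.859 in untreated peritoneal macrophages and 1.63 with IFN-gamma. Mmp12 had a ratio of 0.911 in untreated bone marrow-derived macrophages and 1.21 with IL-4, and 1.62 in untreated peritoneal against 0.911 in untreated bone marrow-derived macrophages. Mmp19, which shares its locus with Tmem198b, had a ratio of 1.22 in untreated peritoneal and 0.798 in untreated bone marrow-derived macrophages.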

How the results depend on the processing

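Libraries could not be paired by replicate or animal, because every group holds 1 replicate and no replicate number ties libraries together. The test over the 4 pairs matched libraries by cell type and treatment only. In the fits of 4 libraries, leaving out 1 leaves no residual degree of freedom, and with 8 libraries it was not run. For IFN-gamma, 3873 genes were called and 2088 by DESeq2; 48 of 49 member estimates under the alternatives kept their direction and call, Mmp8 under DESeq2 being the exception. For genotype in peritoneal cells 4 genes were called, against 17 with RLE scaling, 52 without the filter, 39 by DESeq2, 0 by limma (1277 at an unadjusted p under 0.05) and 77 with 8 libraries in 1 fit. Of the members, 1 was called higher without the filter, by DESeq2 and with 8 libraries, in each case Mmp12. Timp1 went from 0.06 to -0.01 with limma, called in neither. For IL-4, 2731 genes were called, 1063 by DESeq2 and 1029 with 8 libraries. Of the members, 4 were called higher, against 2 by DESeq2, 2 by limma and 1 with 8 libraries, and 2 lower, against 1 by DESeq2 and 1 with 8 libraries; Timp1 went from 0.04 to 0.0 with limma, called in neither. For genotype in bone marrow-derived cells 669 genes were called, 1253 without the filter, 155 by DESeq2, 245 by limma and 147 with 8 libraries; 3 members were called lower and 1 with 8 libraries, which was Timp1, and Timp2 was called without the filter (adjusted p = 0.0236). Over the 4 pairs 1 gene was called and 0 without the filter by limma (1207 at an unadjusted p under 0.05). Leaving out each pair in turn, chosen after seeing the data, gave 1 to 2 genes and 0 members; Mmp9 (0.13 over all 4) ranged from -0.16 to 0.24 and Mmp19 (-0.03) from -0.13 to 0.06, called in none. With a 1.5-fold limit the members past it, beside the share of all genes, were 7 for IFN-gamma in WT (21.9%), 9 in KO (27.5%), 1 for IL-4 in WT (5.16%), 2 in KO (4.8%), 1 for KO against WT in untreated peritoneal cells (2.53%), 4 with IFN-gamma (8.5%), and 2 each in untreated (1.77%) and IL-4 (2.86%) bone marrow-derived cells. For KO against WT with IFN-gamma, 2 members were past 2-fold with a pseudocount of 0.1, with median centring and with TMM-scaled counts, Mmp9 joining Adam8. Except where a setting tests fewer genes, the cause of these changes was not tested. Depth limits Mmp8, Mmp9 and Mmp13 in peritoneal cells, with 10 to 132 counts a library.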
